A study of Mus musculus and Homo sapiens with 10 samples.

Results

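Il1rapl1 is a long gene of mouse chromosome X in which DNA break ends were counted base by base in sorted jejunal enterocytes. It is 1 of the 21887 protein-coding genes that RefSeq annotates on the main chromosomes (assembly GRCm38.p6), and it was chosen by the break counts of the same 6 enterocyte libraries described here. The RefSeq annotation (gene ID 331461) places it at X:86740937-88115948 on the minus strand, a span of 1375.01 kb. A 100 kb bin within the gene, from 87.2 to 87.3 Mb of chromosome X and called the window here, was selected on its break counts, which exceeded those of its neighbours. The level of the window, of the whole gene and of any position in it is therefore a description with no test. Tests were made only on the gene outside the window and on other genes.

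The series applied in-suspension BLISS, which ligates an adapter to the blunted ends of DNA double-strand breaks and amplifies them by in vitro transcription. Sequenced ends are taken to mark breaks. Jejunal enterocytes of mouse were sorted on Cd73, the surface ectonucleotidase encoded by Nt5e, which is known to increase towards the tip of the villus. There were 2 libraries each of Cd73 high, Cd73 mid and Cd73 negative enterocytes, titled M1 and M2 in every gate. Another 4 libraries of the human line TK6 were not analysed here. No treatment, genotype, strain or age is given for the mice. What M1 and M2 stand for is not given either, so the tests below measure the spread between these libraries.

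The libraries held 1522615 and 1272771 break ends on the main chromosomes in Cd73 high, 4757961 and 5160171 in Cd73 mid, and 13043514 and 12585228 in Cd73 negative enterocytes. Depth thus differed with the gate, and the 2 cannot be told apart. Chromosome X took between 2.35% and 2.48% of the break ends in all 6 libraries. Levels are given as EPM, the break ends per 1000000 break ends of the library on the main chromosomes. Bodies of 12 enterocyte marker genes held 655 to 749 EPM per Mb, those of 6 neuronal markers 402 to 445 and those of 6 lymphocyte markers 349 to 499. Breaks in DNA are not expression, so these values do not check the identity of the sorted cells.

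Il1rapl1 encodes a single-pass membrane protein of the interleukin-1 receptor family, with immunoglobulin-like domains outside the cell and a TIR domain inside it. It is known as a synaptic adhesion molecule that binds receptor tyrosine phosphatases of the presynaptic side, foremost the product of Ptprd. In humans, mutations and deletions of IL1RAPL1 cause X-linked intellectual disability, and IL1RAPL1 lies beside DMD in a common fragile site, a region prone to gaps and breaks under replication stress. Very long genes are a frequent feature of such sites.

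The gene start is shown because break ends are often dense at starts, whereas none was counted in this promoter. The 250 bases before the annotated start, X:88115949-88116198 of GRCm38.p6, are given 5′ to 3′ on the minus strand from RefSeq, with matches to CCAAT on either strand (CCAAT or ATTGG) in capitals.

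Il1rapl1 promoter: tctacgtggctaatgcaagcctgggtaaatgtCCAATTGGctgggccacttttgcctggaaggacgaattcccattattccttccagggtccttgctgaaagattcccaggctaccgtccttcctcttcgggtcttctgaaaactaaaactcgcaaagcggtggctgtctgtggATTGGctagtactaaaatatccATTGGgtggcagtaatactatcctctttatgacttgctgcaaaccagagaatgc

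The stretch held 4 matches, of which 2 overlap each other. CCAAT or its complement occurred in 38.2% of the 21263 promoters of the same length in the table (250 bases before to 50 after the start). TATAAA on either strand was not among the letters of the Il1rapl1 promoter and occurred in 12.6% of these promoters. No break end was listed in the 300 bases of the Il1rapl1 promoter in any library, which allows up to 1.97 and 2.36 EPM in Cd73 high, 0.631 and 0.581 EPM in Cd73 mid, and 0.230 and 0.238 EPM in Cd73 negative libraries. These limits, from a count of 3, and the intervals below cover counting error only.

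Within 1 kb on either side of the start, Cd73 high libraries listed 0 and 0 break ends, Cd73 mid libraries 0 and 4, and Cd73 negative libraries 5 and 6. The mean over the 6 libraries was 0.273 EPM, against a median of 2.57 EPM over all 21263 starts, and 90.7% of starts held more. The start of Il1rapl1 was thus among the sparser starts. At the depth of the Cd73 high libraries a difference between gates could not be detected there.

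Over the whole gene, Cd73 high libraries held 408 (M1) and 306 (M2) break ends, Cd73 mid libraries 1236 and 1218, and Cd73 negative libraries 2621 and 2515. Scaled to depth this came to 268 and 240 EPM in Cd73 high, 260 and 236 EPM in Cd73 mid, and 201 and 200 EPM in Cd73 negative libraries. Each Cd73 high and each Cd73 mid library lay above both Cd73 negative libraries, while the Cd73 high and Cd73 mid libraries overlapped. The share of all genes with this order is not given here. These levels include the window, which was chosen on its break counts. Outside the window the gates overlapped, with levels from 161 to 205 EPM. On TMM-scaled counts over gene bodies, a scale other than EPM, the log2 fold change of the whole gene was 0.47 for Cd73 high against negative, 0.36 for Cd73 mid against negative and 0.11 for Cd73 high against mid.

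The break ends were not spread evenly. The 15 bins of 100 kb that touch the gene had mean levels between 12.3 and 15.3 EPM, except the window, which had 62.3 EPM and ranked 1 among the 1582 bins of chromosome X, whose median was 14.7 EPM. The window held 96 (M1) and 96 (M2) break ends in Cd73 high, 435 and 389 in Cd73 mid, and 445 and 435 in Cd73 negative libraries. In EPM these were 63.0 and 75.4 in Cd73 high, 91.4 and 75.4 in Cd73 mid, and 34.1 and 34.6 in Cd73 negative libraries.

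The window was high in both Cd73 high and both Cd73 mid libraries and low in both Cd73 negative libraries, with no overlap between these and the rest. Its share of the break ends of the gene was 23.5% and 31.4% in Cd73 high (95% Wilson intervals 19.7% to 27.9% and 26.4% to 36.8%), 35.2% and 31.9% in Cd73 mid, and 17.0% and 17.3% in Cd73 negative libraries. With each listed position counted once, the mean share was 14.0% in Cd73 high, 11.4% in Cd73 mid and 9.44% in Cd73 negative, so that Cd73 high came before Cd73 mid. This order is the reverse of that of depth, and a count of listed positions depends on depth. With all libraries thinned to the shallowest, the mean share was 28.0% in Cd73 high, 35.8% in Cd73 mid and 16.7% in Cd73 negative. On the TMM-scaled counts of the edgeR fit of bins, the log2 fold change of the window was 0.98 for Cd73 high against negative, 1.26 for Cd73 mid against negative and -0.28 for Cd73 high against mid.

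**Figure D1:**
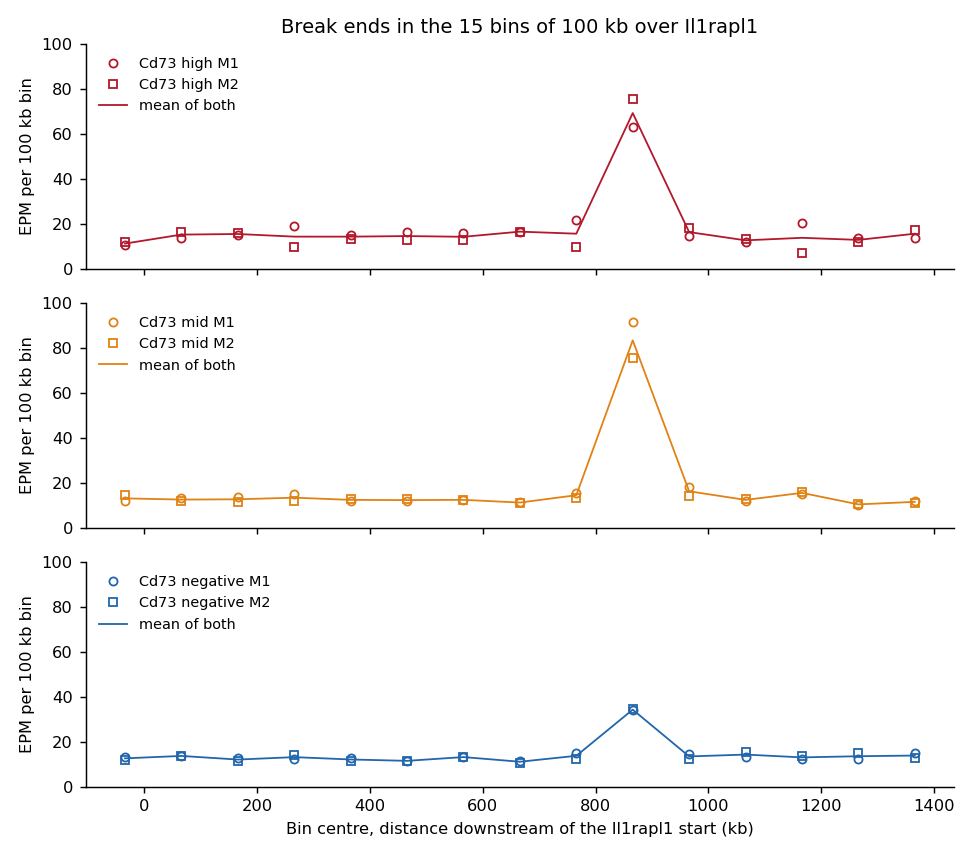
Break ends per 1000000 (EPM, vertical axis) in each of the 15 bins of 100 kb over Il1rapl1, by distance of the bin centre downstream of the gene start (horizontal axis, kb); circles are M1, squares M2 and lines their mean, with Cd73 high at the top, then mid and negative. The window stands above the other bins in every library, from 34.1 EPM in Cd73 negative M1 to 91.4 EPM in Cd73 mid M1.

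Nearly all of the excess came from a single short run of bases. Listed positions no more than 10 bases apart around the leading position formed a cluster at X:87238356-87238424, which spans 69 bases, or 0.00502% of the length of the gene. The cluster lies in the body of the gene, with its leading position 877.587 kb downstream of the start and 63.8% of the way along. The tables used here give gene spans without exons, so exon and intron could not be told apart. Of the 5 other annotated genes inside Il1rapl1, all pseudogenes, none overlaps the cluster, and the nearest, Gm18920 at X:87322642-87323173, is 84.2 kb away. No position was listed in any library over 346 bases below the cluster and 241 bases above it. The genome sequence was not used here, so the bases of the cluster are not shown, and whether reads map there uniquely was not tested.

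In the cluster, Cd73 high libraries held 77 (M1) and 77 (M2) break ends, Cd73 mid libraries 362 and 317, and Cd73 negative libraries 259 and 261. These were 50.6 and 60.5 EPM in Cd73 high (95% intervals 40.5 to 63.2 and 48.4 to 75.6), 76.1 and 61.4 EPM in Cd73 mid (68.6 to 84.3 and 55.0 to 68.6), and 19.9 and 20.7 EPM in Cd73 negative libraries (17.6 to 22.4 and 18.4 to 23.4). The 4 libraries of Cd73 high and mid did not overlap the 2 of Cd73 negative. Group means were 55.5 ± 7.02 EPM in Cd73 high, 68.8 ± 10.4 EPM in Cd73 mid and 20.3 ± 0.624 EPM in Cd73 negative (SD, n = 2 each). Means were 2.74 times as high in Cd73 high and 3.39 times as high in Cd73 mid as in Cd73 negative.

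These 69 bases held 18.9% and 25.2% of the break ends of the gene in Cd73 high, 29.3% and 26.0% in Cd73 mid, and 9.88% and 10.4% in Cd73 negative libraries. Without them the window was no denser than the bins around it. It then had 12.5 and 14.9 EPM in Cd73 high, 15.3 and 14.0 EPM in Cd73 mid, and 14.3 and 13.8 EPM in Cd73 negative libraries, and the gates overlapped.

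**Figure D2:**
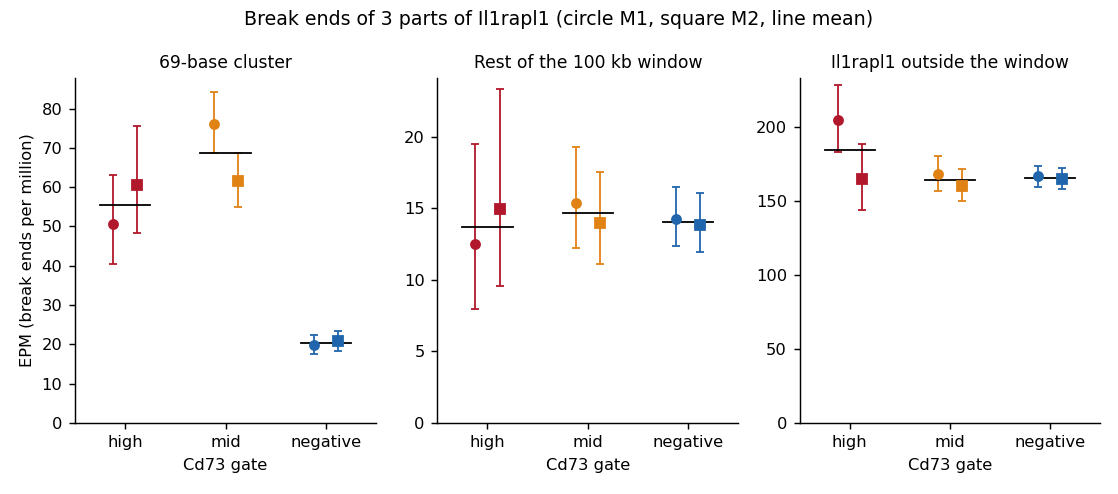
Break ends per 1000000 (EPM) in the cluster of 69 bases, in the rest of the window and in Il1rapl1 outside the window, for Cd73 high, mid and negative libraries; circles are M1, squares M2, bars 95% Wilson intervals of counting error and lines the mean of both. In the cluster, Cd73 negative libraries (19.9 and 20.7 EPM) lie below all others, whereas in the rest of the window the gates overlap.

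The kilobase that holds the cluster, X:87238001-87239000, had a mean of 48.5 EPM. It ranked 13 among the 2355902 windows of 1 kb with a break end in the genome and 1 on chromosome X, where the next had 9.06 EPM. Of the 1376 windows of 1 kb in the gene, 1263 had a break end, and their median was 0.122 EPM. After the leading kilobase came X:87798001-87799000 at 0.714 EPM, X:87495001-87496000 at 0.667 EPM, X:86957001-86958000 at 0.634 EPM and X:87932001-87933000 at 0.627 EPM. None of the 1 kb windows of the gene other than the leading one passed 2.63 EPM in any library.

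Among the 20 densest kilobases of the genome, both Cd73 high libraries lay above both Cd73 negative libraries in 11, and both Cd73 mid libraries above both Cd73 negative libraries in 10. In the densest 1000 the share with both Cd73 high libraries above both Cd73 negative ones was 5.3%, and that for Cd73 mid was 3.9%. Several of the 20 adjoin each other, on chromosomes 2, 14 and 17, so they are not 20 separate places. The kilobase of Il1rapl1 ranked 7 of the 20 by Cd73 high over negative (ratio of mean EPM 2.70) and 1 of the 20 by Cd73 mid over negative (3.33). The next by Cd73 mid over negative was 4:70378001-70379000, a kilobase of chromosome 4 in Cdk5rap2, a centrosome gene, which had 1.74 and a ratio of Cd73 high over negative of 3.99.

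The Il1rapl1 and Cdk5rap2 kilobases also packed their break ends most tightly. Their densest 100 bases held 99.4% (Il1rapl1) and 99.0% (Cdk5rap2) of the break ends of the kilobase, against a median of 43.8% over the 20. They differed in how Cd73 high stood against Cd73 mid. The Cdk5rap2 kilobase had 79.5 and 83.3 EPM in Cd73 high, 32.8 and 38.2 EPM in Cd73 mid, and 20.6 and 20.2 EPM in Cd73 negative libraries, so that Cd73 high led there. In the Il1rapl1 kilobase the Cd73 high libraries had 51.2 and 60.5 EPM, below the 76.3 and 61.6 EPM of the Cd73 mid libraries, and the Cd73 negative libraries 20.3 and 21.1 EPM. There the M2 libraries of Cd73 high and mid were close, at 60.5 and 61.6 EPM. Both Cd73 mid libraries lay above both Cd73 high ones in 5 of the 20 kilobases, and the reverse held in 10.

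**Figure D3:**
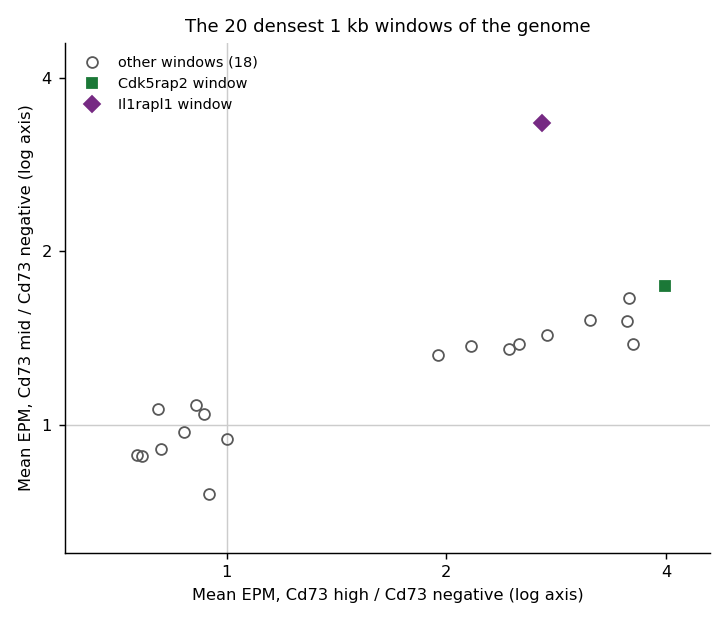
Ratio of mean EPM in Cd73 high over Cd73 negative (horizontal) and in Cd73 mid over Cd73 negative (vertical), both on log axes, for the 20 densest windows of 1 kb of the genome. The Il1rapl1 window (diamond; 2.70 and 3.33) has the highest Cd73 mid ratio of the 20, and the Cdk5rap2 window (square; 3.99 and 1.74) the highest Cd73 high ratio.

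The distribution of break ends over the bases of the cluster differed between the gates in these libraries. Position 87238361, the 6th base of the cluster, had 42 (M1) and 44 (M2) break ends in Cd73 high, 56 and 49 in Cd73 mid, and 57 and 63 in Cd73 negative libraries. It took 54.5% and 57.1% of the cluster in Cd73 high (95% intervals 43.5% to 65.2% and 46.0% to 67.6%), 15.5% and 15.5% in Cd73 mid (12.1% to 19.6% and 11.9% to 19.8%), and 22.0% and 24.1% in Cd73 negative libraries (17.4% to 27.4% and 19.3% to 29.7%). It was the leading position in both Cd73 high and both Cd73 negative libraries. The position was picked for the highest mean EPM over the 6 libraries, to which Cd73 high gave most (27.6 and 34.6 EPM). Its larger share in Cd73 high thus follows in part from that choice.

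The Cd73 mid libraries had most of their break ends further along. Position 87238406 had 0 and 0 break ends in Cd73 high, 98 and 53 in Cd73 mid, and 9 and 9 in Cd73 negative libraries. Position 87238399 had 0 and 1 in Cd73 high, 80 and 36 in Cd73 mid, and 0 and 2 in Cd73 negative libraries. Both positions were picked on their Cd73 mid break ends after the values were seen, so their higher counts in Cd73 mid follow from that choice.

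Position 87238416 had 7 and 3 break ends in Cd73 high, 45 and 65 in Cd73 mid, and 0 and 6 in Cd73 negative libraries. Position 87238411 had 4 and 0 in Cd73 high, 23 and 30 in Cd73 mid, and 12 and 14 in Cd73 negative libraries. The leading position of Cd73 mid M1 was 87238406 and that of Cd73 mid M2 was 87238416. The 4 positions, which lie 43, 50, 55 and 60 bases after the first of the cluster, were those with over 5% of the pooled Cd73 mid break ends of the cluster beside 87238361, a choice made after their values were seen, so that their higher share in Cd73 mid follows from how they were picked.

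As a description of the profile, the 4 positions together took 14.3% and 5.19% of the cluster in Cd73 high, 68.0% and 58.0% in Cd73 mid, and 8.11% and 11.9% in Cd73 negative libraries. Without them the cluster had 43.3 and 57.4 EPM in Cd73 high, 24.4 and 25.8 EPM in Cd73 mid, and 18.2 and 18.3 EPM in Cd73 negative libraries. Leaving them out had to lower Cd73 mid most, and nothing is read from the order of the gates without them. The cluster was also split after its profile was seen, with 87238361 on one side and the 4 positions on the other. The first 25 bases had 38.7 and 51.1 EPM in Cd73 high, 18.3 and 17.4 EPM in Cd73 mid, and 8.97 and 9.46 EPM in Cd73 negative libraries. The other 44 bases had 11.8 and 9.43 EPM in Cd73 high, 57.8 and 44.0 EPM in Cd73 mid, and 10.9 and 11.3 EPM in Cd73 negative libraries. The place of the split fixes which gate is high on each side.

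**Figure D4:**
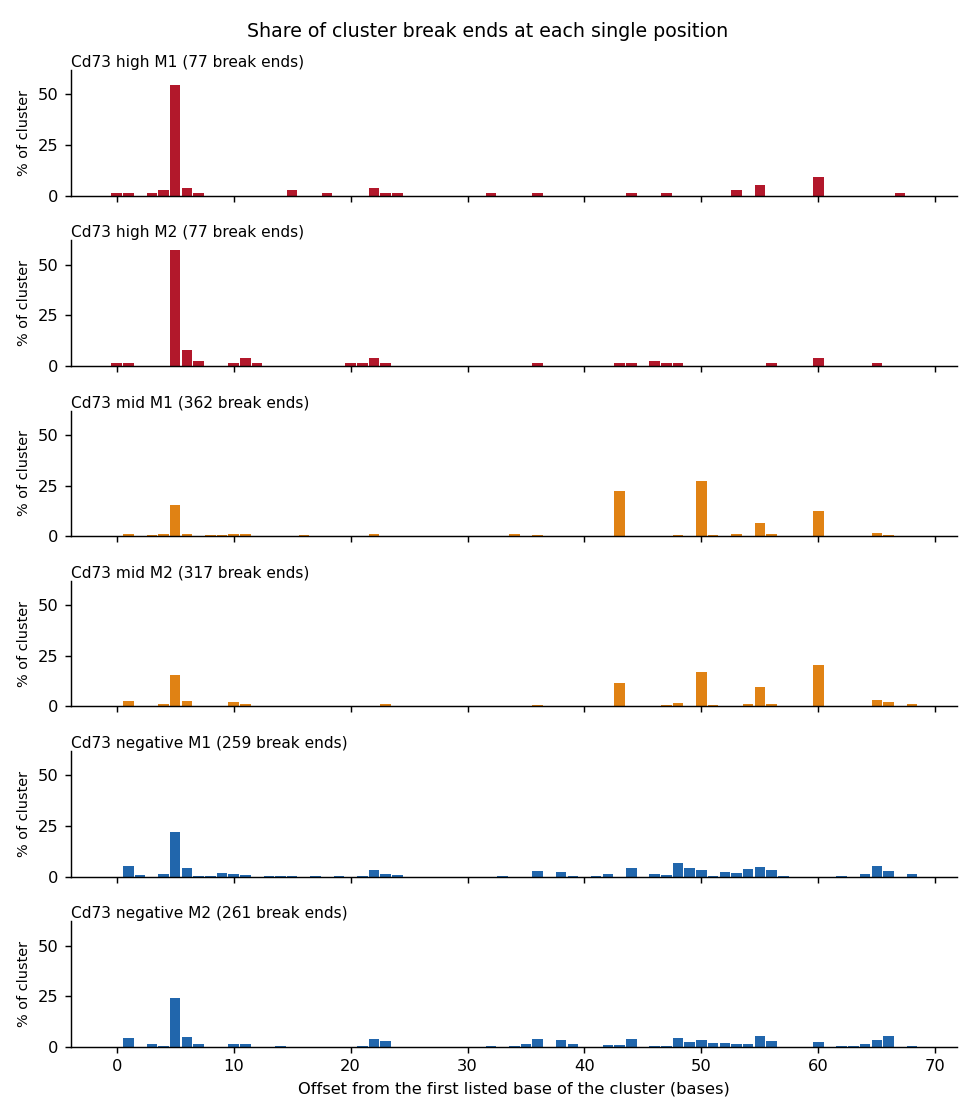
Share of the break ends of the cluster (vertical axis, %) at each base, by offset from the first listed base (horizontal axis, bases), with a panel for each library and Cd73 high at the top. The base at offset 5 takes 54.5% and 57.1% in Cd73 high, and the bases at offsets 43, 50, 55 and 60 together 68.0% and 58.0% in Cd73 mid. These bases were picked on their break ends in the same libraries.

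Libraries of the same gate resembled each other. The overlap of 2 profiles, taken as the sum over positions of the smaller of both shares, was 75.3% between the Cd73 high libraries, 73.2% between the Cd73 mid libraries and 79.7% between the Cd73 negative libraries. Between gates it was 28.9% to 38.3% for Cd73 high and mid, 43.3% to 49.7% for Cd73 high and negative, and 37.3% to 49.7% for Cd73 mid and negative. Every pair within a gate thus overlapped more than every pair across gates. These are 3 pairs within gates and 12 across, of libraries that differ in depth.

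Recurrence at single bases was rare elsewhere in the gene. Of the 6200 positions listed outside the cluster, 5827 were listed in 1 library, 373 (6.02%) in at least 2, 39 in at least 3 and none in all 6. Of the 56 positions of the cluster, 49 (87.5%) were listed in at least 2 libraries, 35 in at least 3 and 6 in all 6. A listed position of the cluster held on average 3.85 and 3.67 break ends in Cd73 high, 11.7 and 9.91 in Cd73 mid, and 6.02 and 6.69 in Cd73 negative libraries. Outside the cluster the average ran from 1.02 to 1.06 and no position of any library passed 6 break ends. The cluster was built around the position with the highest mean level, so higher recurrence and higher counts there follow from how it was picked. Whether a count is of molecules or of reads is not given in the sources used here.

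Outside the window Il1rapl1 had 312 (M1) and 210 (M2) break ends in Cd73 high, 801 and 829 in Cd73 mid, and 2176 and 2080 in Cd73 negative libraries. In EPM these were 205 and 165 in Cd73 high, 168 and 161 in Cd73 mid, and 167 and 165 in Cd73 negative libraries. Cd73 high M1 stood above the other 5 libraries, which lay within 161 to 168 EPM. The gates overlapped.

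These counts were tested with edgeR among the bodies of 17809 genes, of which 0.00562% were called at an adjusted p under 0.05 for Cd73 high against negative, and 0% for each of the other comparisons. On the scale of TMM-scaled counts per 1000000 over gene bodies (CPM), Il1rapl1 outside the window averaged 389 ± 53.8 in Cd73 high, 330 ± 25.5 in Cd73 mid and 321 ± 13.6 in Cd73 negative (SD, n = 2 each). The log2 fold change was 0.29 for Cd73 high against negative (SE 0.13, edgeR adjusted p = 0.523). It was 0.04 for Cd73 mid against negative (SE 0.12, edgeR adjusted p = 0.998) and 0.24 for Cd73 high against mid (SE 0.13, edgeR adjusted p = 0.9998). None of the 3 comparisons passed. The unadjusted edgeR p was under 0.05 only for Cd73 high against negative, where that held for 8.75% of all genes tested, and without Cd73 high M1 this fold change was 0.12. With each position counted once it was 0.03, and with all libraries thinned to the shallowest 0.13. The value of 0.04 for Cd73 mid against negative turned to -0.12 with positions counted once, to -0.20 with thinning, to -0.039 without Cd73 mid M1 and to -0.00227 without Cd73 negative M2.

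None of the 14 bins outside the window was called by edgeR in any comparison, and DESeq2 called none either. Of all 25093 bins tested, edgeR called 0.0279% for Cd73 high against negative, 0.00797% for Cd73 mid against negative and 0% for Cd73 high against mid. In each comparison 1 bin of the 14 had an unadjusted p under 0.05, against 10.3% of all bins for Cd73 high against negative, 6.2% for Cd73 mid against negative and 4.72% for Cd73 high against mid. Log2 fold changes for Cd73 high against negative ran from -0.22 to 0.53, with 11 of 14 above 0 and a median of 0.12, against 0.01 over all bins. For Cd73 mid against negative they ran from -0.40 to 0.24, with 7 of 14 above 0 and a median of 0.00. For Cd73 high against mid they ran from -0.25 to 0.55, with 11 of 14 above 0 and a median of 0.20. These comparisons share libraries.

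For its length, Il1rapl1 outside the window was sparse in breaks. It had 161 and 129 EPM per Mb in Cd73 high, 132 and 126 EPM per Mb in Cd73 mid, and 131 and 130 EPM per Mb in Cd73 negative libraries, a mean of 135. The median over all 21887 genes was 536 EPM per Mb and that over the 966 genes of chromosome X 203. In all, 88.6% of genes, and 67.4% of those on chromosome X, were denser.

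Its closest counterparts in size are the 11 protein-coding genes of chromosome X of at least 500 kb. By mean EPM per Mb over whole gene bodies their order was Arhgap6 (200), Diaph2 (195), Frmpd4 (172), Il1rapl1 (170), Dmd (155), Fgf13 (148), Tenm1 (148), Il1rapl2 (148), Aff2 (145), Dach2 (141) and Pcdh11x (127). Without the window Il1rapl1 would stand at place 10 of the 11. Whole Il1rapl1 had 195 and 175 EPM per Mb in Cd73 high, 189 and 172 EPM per Mb in Cd73 mid, and 146 and 145 EPM per Mb in Cd73 negative libraries. Dmd, the dystrophin gene and the neighbour of IL1RAPL1 in humans, had 155 and 159 EPM per Mb in Cd73 high, 160 and 148 EPM per Mb in Cd73 mid, and 155 and 152 EPM per Mb in Cd73 negative libraries. The order from Fgf13 to Dach2 lay within the spread between libraries, and none of the other 10 genes was called in any comparison.

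The protein-coding genes within 1 Mb all lie beyond the end of Il1rapl1: Mageb4, Nr0b1 (a nuclear receptor of adrenal development), Samt3, 5430427O19Rik and Gk (glycerol kinase). Mageb4, Nr0b1 and Samt3 had too few break ends to be tested. 5430427O19Rik had 321 and 322 EPM per Mb in Cd73 high, 220 and 227 EPM per Mb in Cd73 mid, and 224 and 218 EPM per Mb in Cd73 negative libraries. Its log2 fold change was 0.67 for Cd73 high against negative (edgeR adjusted p = 0.327). Gk had 360 and 283 EPM per Mb in Cd73 high, 292 and 373 EPM per Mb in Cd73 mid, and 425 and 375 EPM per Mb in Cd73 negative libraries. No neighbour was called in any comparison.

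The interleukin-1 family was read as 28 genes, of which 27 were found in the annotation and 25 tested, Il1rapl1 outside its window among them. None was called in any comparison. In Cd73 high against negative, 16 had a log2 fold change above 0 and 9 below, with a median of 0.27 against -0.00226 over all genes, and 8 of the 25 had an unadjusted p under 0.05, against 8.75% of all genes. Il1r1, Il1r2, Il1rl1, Il1rl2 and Il18r1 of these 8 lie close together on chromosome 1, so they are not separate places. Il1rapl1 outside its window is another of the 8. In Cd73 mid against negative, 17 lay above and 8 below 0, with a median of 0.13, and 1 had an unadjusted p under 0.05, as had 3.16% of all genes. In Cd73 high against mid, 15 lay above and 10 below 0, with a median of 0.08, and 2 had an unadjusted p under 0.05, as had 4.52% of all genes.

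Among the receptors, Il1rapl2, the X-linked paralogue of Il1rapl1, had 165 and 163 EPM per Mb in Cd73 high, 157 and 135 EPM per Mb in Cd73 mid, and 136 and 133 EPM per Mb in Cd73 negative libraries. Its log2 fold change was 0.41 for Cd73 high against negative (SE 0.13, edgeR adjusted p = 0.327), the smallest p of the list. The Cd73 mid and negative libraries overlapped.

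Il1r1, the signalling receptor of interleukin-1, had 469.5 and 436 EPM per Mb in Cd73 high, 408 and 335 EPM per Mb in Cd73 mid, and 351 and 343 EPM per Mb in Cd73 negative libraries. Its log2 fold change was 0.51 for Cd73 high against negative (SE 0.18, edgeR adjusted p = 0.385). Il1rl2, the receptor of interleukin-36, had 627 and 311 EPM per Mb in Cd73 high, 435 and 442 EPM per Mb in Cd73 mid, and 332 and 333 EPM per Mb in Cd73 negative libraries. The Cd73 high libraries of Il1rl2 lay on both sides of all the others, with a log2 fold change of 0.65 against negative (SE 0.24, edgeR adjusted p = 0.395).

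Il1rl1, the receptor of interleukin-33, had 336 and 493 EPM per Mb in Cd73 high, 330 and 282 EPM per Mb in Cd73 mid, and 333 and 281 EPM per Mb in Cd73 negative libraries. Il1r2, the decoy receptor, had 486 and 349 EPM per Mb in Cd73 high, 337 and 234 EPM per Mb in Cd73 mid, and 316 and 304 EPM per Mb in Cd73 negative libraries. For Cd73 high against mid these 2 had the smallest p of the list, with log2 fold changes of 0.64 for Il1r2 and 0.49 for Il1rl1. None of the ligands and signal transducers was among the 4 smallest p for Cd73 high against negative. In Cd73 mid against negative the smallest p belonged to Il1rl2, with a log2 fold change of 0.45 (SE 0.18, edgeR adjusted p = 0.998). It was followed by Tollip, an adaptor that dampens Toll and interleukin-1 signalling, at 0.35, the cytokine gene Il18 at -0.32 and Traf6, a ubiquitin ligase of the pathway, at 0.29.

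**Figure D5:**
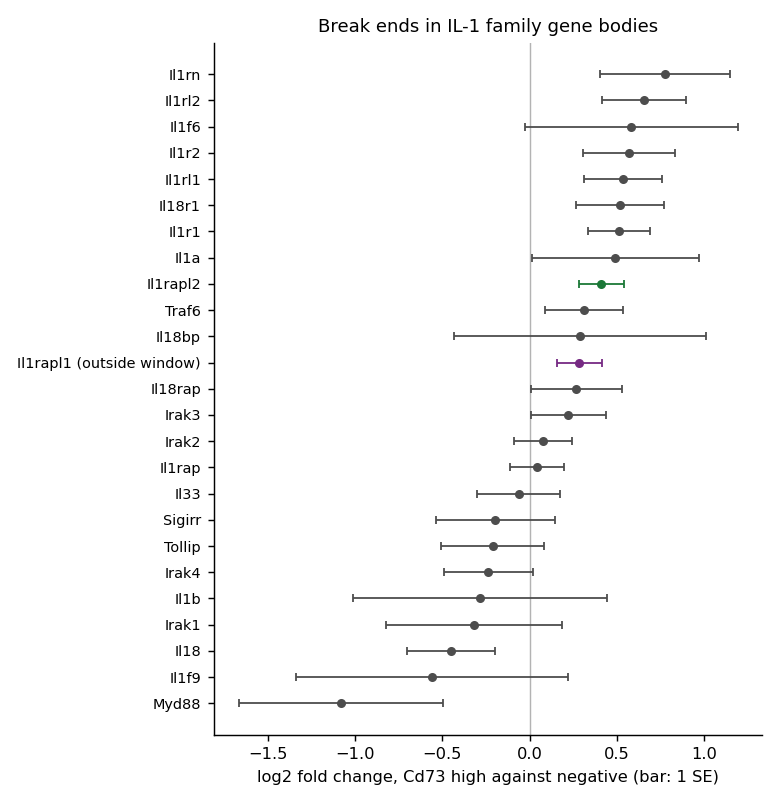
Log2 fold change of break ends in gene bodies (horizontal axis, Cd73 high against negative; point with 1 SE of the edgeR fit) for the 25 tested genes of the interleukin-1 family, sorted by size. Il1rapl1 outside the window (0.29) lies near the median of the list (0.27), and no gene passed the adjusted threshold.

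The 14 genes of known or presumed partners of the protein at the synapse were all tested and none was called in any comparison. In Cd73 high against negative, 7 lay above and 7 below 0, with a median of -0.01, and 2 of the 14 had an unadjusted p under 0.05, against 8.75% of all genes. For Cd73 mid against negative 11 lay above and 3 below, with none at an unadjusted p under 0.05, against 3.16% of all genes. In Cd73 high against mid, 6 lay above and 8 below, and 2 of the 14 had an unadjusted p under 0.05, against 4.52% of all genes. Nlgn1, a postsynaptic neuroligin, had 346 and 325 EPM per Mb in Cd73 high, 301 and 288 EPM per Mb in Cd73 mid, and 281 and 272 EPM per Mb in Cd73 negative libraries. The log2 fold change of Nlgn1 was 0.41 for Cd73 high against negative (SE 0.13, edgeR adjusted p = 0.327). Slitrk1, a postsynaptic adhesion gene, had 1.39 in the same comparison (SE 0.64, edgeR adjusted p = 0.532). It rests on few break ends, 4 and 6 in Cd73 high, 9 and 13 in Cd73 mid, and 17 and 21 in Cd73 negative libraries. In Cd73 high against mid the smallest p was that of Ptprs, a presynaptic receptor phosphatase, with a log2 fold change of -0.36. For Cd73 high against negative Ptprd, the main presynaptic partner, had a log2 fold change of 0.09 (SE 0.13, edgeR adjusted p = 0.8996).

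The genes whose whole-body levels ran most like those of Il1rapl1 over the 6 libraries were E030018B13Rik, Tyr and Npsr1, with Pearson correlations of log2 CPM of 0.990, 0.990 and 0.989. E030018B13Rik had few break ends, from 3 to 28 in a library. Of 17808 genes compared, 308 had a correlation above 0.9. The points share libraries, gates and depth, and with 6 of them this is a description only.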

How the data were processed

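In-suspension BLISS libraries of Cd73 high, mid and negative enterocytes were used (2 each). Reads were aligned with BWA to GRCm38, per the submitters' processing notes. No source used here gives the BWA version, the mapping filters or how duplicates and molecular identifiers were handled. The authors deposited, for each library, the counts of break ends at single positions, not normalized and without strand; no position was listed more than once.

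From these counts, break ends were summed over gene bodies (RefSeq, GRCm38.p6), bins of 100 kb and windows of 1 kb. EPM are break ends per 1000000 on the main chromosomes. Genes and bins were tested with edgeR 4.0.16 under R 4.3.3 (quasi-likelihood F test after TMM scaling and filterByExpr, 3 gates in a single fit), with Benjamini-Hochberg adjustment over all features and a threshold of 0.05; DESeq2 1.42.0 was an alternative. CPM are TMM-scaled counts per 1000000 gene-body break ends. The Il1rapl1 count left out the window. The scripts were tested on simulated counts. Depth ran from 1272771 to 13043514 break ends.

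Il1rapl1, its window and the gene lists were chosen with earlier results of these data known. The rule named all protein-coding neighbours within 1 Mb, X-linked genes of at least 500 kb, up to 4 list members with the smallest p, the 5 densest kilobases and positions, and the 3 genes most correlated with Il1rapl1. A kilobase in Cdk5rap2, 4 positions and the split of the cluster were chosen after their values were seen.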

Additional observations from a re-analysis of the deposited data

How the results depend on the processing

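With 2 libraries a gate and 306 break ends in the shallowest, counting error alone is wide in Cd73 high. Il1rapl1 outside the window passed no threshold in any comparison under any of the 14 alternatives run. For Cd73 high against negative its log2 fold change ran from 0.03 (positions counted once) to 0.41, all above 0, with adjusted p between 0.168 and 0.996, and from 0.12 to 0.41 with a library left out. For Cd73 high against mid it ran from 0.09 to 0.37 with a library left out. For Cd73 mid against negative it was 0.04 and turned to -0.12 with each position counted once, to -0.20 with libraries thinned to the shallowest, to -0.039 without Cd73 mid M1 and to -0.00227 without Cd73 negative M2; with a library left out it ran from -0.039 to 0.11. The cause was not tested. The share of Il1rapl1 break ends in the window averaged 27.5% in Cd73 high, 33.6% in Cd73 mid and 17.1% in Cd73 negative. With each position counted once it was 14.0% in Cd73 high, 11.4% in Cd73 mid and 9.44% in Cd73 negative, which follows from the many break ends at single bases of the cluster. Thinned to the shallowest library, the share was 28.0% in Cd73 high, 35.8% in Cd73 mid and 16.7% in Cd73 negative. With a library left out the shares ran from 23.5% to 31.4% in Cd73 high, from 31.9% to 35.2% in Cd73 mid and from 17.0% to 17.3% in Cd73 negative. The numbers M1 and M2 do not pair the libraries by what is given (correlations of deviations from the group means -0.048, -0.044 and 0.34). With them as a replicate block, Il1rapl1 outside the window had 0.28 for Cd73 high against negative (edgeR adjusted p = 0.179), 0.04 for Cd73 mid against negative and 0.24 for Cd73 high against mid. The block raised the count of called genes for Cd73 high against negative from 0 to 1 in the interleukin-1 family (Il1rapl2, edgeR adjusted p = 0.0265) and from 0 to 1 among the synaptic partners (Nlgn1, edgeR adjusted p = 0.0141), and changed no other call. Leaving out positions with over 100 break ends removed none of Il1rapl1. Scaled by library size alone, genes had a median log2 fold change of -0.06 for Cd73 high against negative, against -0.00226 with TMM.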
